A study of Homo sapiens with 16 samples.

Results

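The transcriptome of cells given full-length HIF-2α was compared with that of untransfected cells, across all expressed genes and with EPAS1, the gene of HIF-2α itself, left out of the results. The cells were SK-N-BE(2), an established human neuroblastoma line with amplified MYCN, grown at 37 °C in 21% oxygen, 5% CO2 and 10% serum. The untransfected group is labelled WT and the group transfected with the full-length form is labelled FL, with 4 libraries each out of 16 in the series. The remaining 8 libraries are from cells transfected with forms that the labels call NCTAD and cIDR, 4 libraries each, and they serve here to estimate the spread and for 2 tests of difference. Replicate numbers 1 to 4 are also batch numbers in the labels, so an FL library and a WT library of the same number are a pair. The sources used here do not give the vector, how long after transfection cells were taken, whether the construct was kept stably, whether its oxygen-sensing residues were intact or whether the WT cells had a mock treatment. Transfection as such and HIF-2α therefore cannot be told apart in any value below. The labels do not say whether batches are separate cultures, so p-values measure the spread between these libraries.

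HIF-2α is the oxygen-regulated partner of a heterodimer with ARNT. When oxygen is plentiful, prolyl hydroxylases of the EGLN family mark it for VHL, which directs its destruction, and when oxygen is low it persists, enters the nucleus and binds DNA elements with the core ACGTG or GCGTG. Its targets include genes of blood vessel growth, glucose uptake and cell survival, many of them shared with HIF-1α, and in the sympathetic lineage, from which neuroblastoma arises, it is found in cells that make catecholamines.

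EPAS1 itself was 18.2 ± 6.89 CPM (counts per 1 M counts, mean ± SD) in the 4 WT libraries and 2609 ± 906 CPM in the 4 FL libraries, with no overlap between the groups, as the sample labels have it. The columns of the deposited tables use other names: there the FL libraries are called WT, the WT libraries CTRL and the line BE2c. Groups here follow the sample labels. Totals were 41.4 to 51.0 M (mega) counts per library. Markers of adrenergic neuroblastoma (among them PHOX2A, HAND2, GATA3, ISL1, TH, DBH, CHGA and MYCN) were all detected and summed to 5206 to 5963 TPM (transcripts per 1 M) in WT and 5551 to 6238 TPM in FL. Of 8 blood markers, all were under 1 TPM in every library and HBB was at 0. Of 10 epithelial markers 7 were under 1 TPM throughout, with KRT5 and ESRP1 at 0, and of 8 endothelial markers 7 were under 1 TPM, with TIE1 at 0. The endothelial sum, 2.41 to 20.2 TPM in WT and 2.99 to 41.7 in FL, was almost wholly EGFL7, and fibroblast and Schwann markers summed to 59.3 to 117 TPM in WT and 61.1 to 119 in FL. Batch 2 stood apart in both groups. Among 97 genes named by the rule used here, 28 of 194 groups of 4 libraries had 1 value far from the other 3, and 23 of those 28 values were in batch 2.

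Of 19529 tested genes, 13 rose in FL (0.0666%) and 6 fell (0.0307%) at an adjusted p under 0.05, in a model that compared libraries within batches. The genes that rose included BHLHE40, a transcriptional repressor induced by hypoxia, SLC18A1, a vesicular transporter that loads catecholamines, and a set of genes at a few CPM or less in most WT libraries (TRIM29, SLC12A3, C2CD4A, ELFN1, NEDD9 and ITPKB). PPP2R2B, a brain-enriched regulatory subunit of protein phosphatase 2A, fell to 0.377 of its WT level, and FBXO40, an F-box protein, to 0.258. In RNA from a whole culture, a change in every cell and a change in the share of cells with a given level cannot be told apart. Across all tested genes the median log2 fold change was 0.01, and all but the outermost values in each tail lay between −0.39 (the 5th percentile) and 0.41 (the 95th). Each of the 19 called genes differed in the same direction in 4 of 4 batches, which 5.32% of tested genes did upward and 3.94% downward. All 4 FL libraries lay beyond all 4 WT libraries for 10 of the 19, 4 higher and 6 lower, against 0.451% and 0.358% of tested genes. The 19 were chosen by a test within batches on these same libraries, so these 2 counts are no support for them. At an unadjusted p under 0.05 there were 997 genes, 682 higher (3.49%) and 315 lower (1.61%). Together these shares are close to what a threshold of 0.05 gives when no gene changes, so the 997 are not read as a response. Without the batch in the model 1 gene was called, and 16 of the 19 had an unadjusted p under 0.05. The coefficient of variation between libraries was 0.245 in that model and 0.108 with the batch. With no low-count filter 67 genes were called (54 higher, 13 lower), and with DESeq2 in place of edgeR 57 (49 higher, 8 lower). Of the 19 genes, 15 reached the level of the low-count filter, 0.212 CPM, in all 8 libraries. NEDD9, ELFN1 and ENSG00000287521 reached it in 4 FL libraries but in 1, 2 and 0 WT libraries, and MARK2P13 in 4 WT libraries but 0 FL libraries, so that of the 2 groups compared only the higher one carried these 4 genes past the filter. The other 8 libraries all reached it for NEDD9, ELFN1 and ENSG00000287521, and 1 of them for MARK2P13. The calls of these 4 genes are no support, and nor is the lack of overlap of ENSG00000287521 and MARK2P13. The 17 called genes with a RefSeq location lay on 12 chromosomes.

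**Figure D1:**
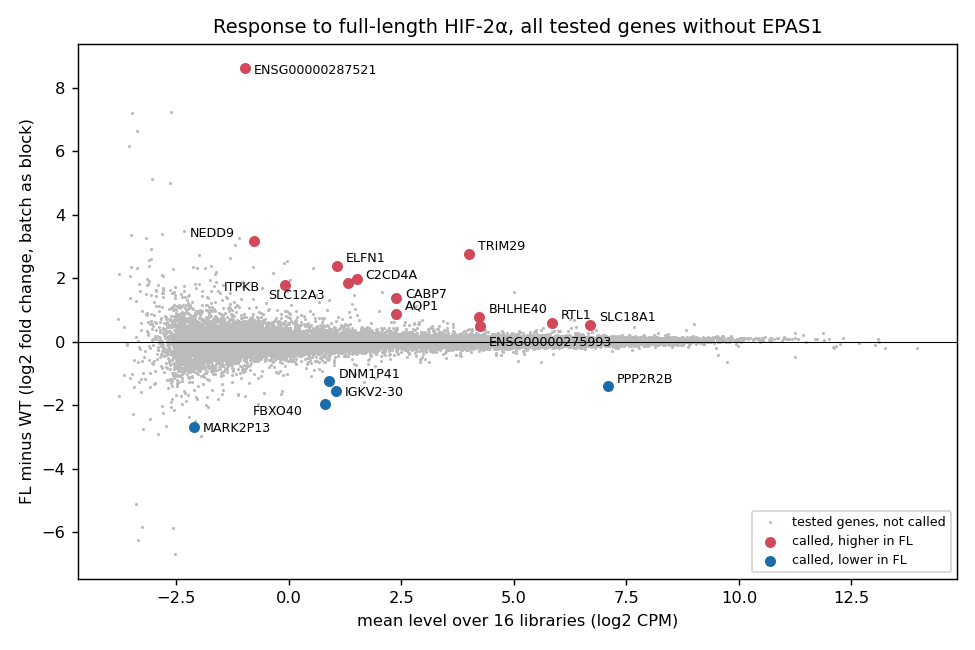
Log2 fold change of FL against WT for the tested genes (vertical axis) against their mean level in log2 CPM over 16 libraries (horizontal axis). Red points are the 13 genes that rose, blue points 5 of the 6 that fell and grey points the genes that were not called, most of which lie between −0.39 and 0.41.

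BHLHE40 (ENSG00000134107.5, chr3:4979437-4985323, GRCh38.p14) encodes a basic helix-loop-helix repressor of the circadian clock, also known as DEC1, and is a long-known hypoxia-induced gene. It was at 11, 15.9, 10.7 and 9.42 CPM in WT batches 1 to 4 and at 15.7, 31.7, 17.2 and 17.3 CPM in FL. Every FL library was above its own WT library, although the WT library of batch 2 was slightly above the FL library of batch 1. BHLHE40 rose 1.71-fold, a log2 fold change of 0.78 ± 0.08 (SE, adjusted p 0.000308). It was the only called gene among 40 hypoxia-induced genes and among 16 tested genes of the clock and its helix-loop-helix relatives. The clock repressors NR1D1 and NR1D2 had unadjusted p-values of 0.0171 and 0.0421, with log2 fold changes of −0.23 and −0.19, and were not called.

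The windows upstream of the start sites of 3 genes that rose are shown because HIF dimers bind the core ACGTG or GCGTG. Capitals mark a match to either word on either strand. Each is the 250 bases before the RefSeq start in GRCh38.p14, on the + strand: BHLHE40 at chr3:4979187-4979436, C2CD4A at chr15:62066727-62066976 and SLC12A3 at chr16:56864957-56865206.
BHLHE40: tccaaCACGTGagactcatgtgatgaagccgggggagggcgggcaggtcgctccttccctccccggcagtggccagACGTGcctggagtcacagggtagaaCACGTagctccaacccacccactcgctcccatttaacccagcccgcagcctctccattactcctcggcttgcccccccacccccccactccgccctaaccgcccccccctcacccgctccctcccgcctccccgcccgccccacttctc
C2CD4A: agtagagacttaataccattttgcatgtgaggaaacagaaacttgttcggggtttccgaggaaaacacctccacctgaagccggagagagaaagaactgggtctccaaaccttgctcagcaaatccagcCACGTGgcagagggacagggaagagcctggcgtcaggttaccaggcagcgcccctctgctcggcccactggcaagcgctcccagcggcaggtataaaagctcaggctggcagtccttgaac
SLC12A3: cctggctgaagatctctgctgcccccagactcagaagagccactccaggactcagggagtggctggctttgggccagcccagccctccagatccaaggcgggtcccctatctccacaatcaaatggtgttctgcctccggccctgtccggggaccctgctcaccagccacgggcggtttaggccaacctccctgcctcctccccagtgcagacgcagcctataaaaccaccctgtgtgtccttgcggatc

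BHLHE40 has 4 matches to ACGTG in this window, starting at positions −245, −244, −174 and −149 from the start site, of which the pair at −245 and −244 is the palindrome CACGTG read on both strands. C2CD4A has the same palindrome, with matches at −121 and −120, and SLC12A3 has none. A window was found for 9 of the 13 genes that rose, and 3 of them (BHLHE40, C2CD4A and NEDD9) held a match. Among the 11846 tested genes with a window 64.1% held at least 1 match, 28.2% to ACGTG. Of the 6 genes that fell 2 had a window, and that of PPP2R2B held a match. A match in so short a word is a description of these windows and not a binding site.

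TRIM29 (ENSG00000137699.17, chr11:120111286-120138113), which encodes a tripartite-motif protein mostly found in epithelia, had the largest change among the genes that rose with a level above 1 CPM in every library. Its level was 1.32, 19.1, 2.24 and 1.32 CPM in WT and 16.4, 92.1, 16.2 and 18.7 CPM in FL. The WT library of batch 2 overlapped the FL libraries of the other batches, but within each batch FL was higher. TRIM29 rose 6.80-fold (log2 fold change 2.76 ± 0.36, adjusted p 0.00403), and its log2 fold change was 3.65 without WT replicate 2. The 10 listed epithelial markers summed to 11.3 to 13.7 TPM in WT and 12.4 to 17.4 TPM in FL, and their part in this result was not tested.

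SLC12A3 (ENSG00000070915.10, chr16:56865207-56915850) encodes the thiazide-sensitive sodium-chloride cotransporter, best known from the distal tubule of the kidney. It was at 0.480, 1.17, 1.23 and 1.3 CPM in WT and 1.80, 7.40, 3.48 and 3.07 CPM in FL, with no overlap between the groups. The increase was 3.61-fold (log2 fold change 1.85 ± 0.22, adjusted p 0.00189). Of its 9 tested relatives of the SLC12 family, itself included, no other was called. SLC12A7, a potassium-chloride cotransporter, had a log2 fold change of 0.15 (unadjusted p 0.0356), and SLC12A5, the neuronal potassium-chloride exporter, one of −0.43 (unadjusted p 0.0251).

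C2CD4A (ENSG00000198535.5), whose small protein carries a C2 domain, was at 1.06, 4.00, 0.362 and 0.461 CPM in WT and 4.03, 14.9, 2.11 and 1.91 CPM in FL. It rose by 1.98 ± 0.26 on the log2 scale (adjusted p 0.00403), and the steps within batches, 1.88, 1.89, 2.41 and 1.96, were of like size although the level itself was highest in batch 2. ELFN1 (ENSG00000225968.8), a postsynaptic adhesion protein with leucine-rich repeats, was at 0.146, 2.31, 0.603 and 0.198 CPM in WT and 1.92, 11.7, 1.53 and 1.95 in FL. Its rise was 5.26-fold (log2 fold change 2.40 ± 0.35, adjusted p 0.0117). NEDD9 (ENSG00000111859.17), a scaffold of focal adhesions, had 0 to 27 counts in WT libraries and 22 to 190 in FL libraries. Its log2 fold change was 3.17 ± 0.49 (adjusted p 0.0175), and 4.21 without WT replicate 2. Of the WT libraries only that of batch 2 reached the level of the low-count filter. ITPKB (ENSG00000143772.11), a kinase that phosphorylates inositol trisphosphate, was at 0.338 to 0.670 CPM in WT and 1.02 to 4.50 CPM in FL without overlap, and rose by 1.77 ± 0.26 (adjusted p 0.0117).

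CABP7, AQP1 and RTL1 also rose, each from a WT level that was highest in batch 2. CABP7 (ENSG00000100314.4), a neuronal calcium-binding protein, was at 0.772, 23.0, 0.917 and 0.988 CPM in WT and 2.99, 41.5, 3.70 and 3.47 CPM in FL. The groups overlapped only through the WT library of batch 2, where the step was 0.85 against 1.77 to 1.96 in the other batches. Its log2 fold change was 1.38 ± 0.22 (adjusted p 0.0243), and 1.97 without WT replicate 2. AQP1 (ENSG00000240583.14), a water channel, was at 2.88, 14.1, 2.03 and 2.24 CPM in WT and 4.25, 37.8, 3.31 and 3.47 CPM in FL. It rose by 0.88 ± 0.15 (adjusted p 0.0398), with the widest step, 1.42, in batch 2 and steps of 0.55 to 0.70 elsewhere. RTL1 (ENSG00000254656.3), an imprinted gene derived from a retrotransposon, rose evenly, by 0.53 to 0.66 in each batch (log2 fold change 0.60 ± 0.10, adjusted p 0.0328), from levels of 21.4 to 110 CPM in WT. Transcripts antisense to RTL1 exist, and whether the counting used strand is not given in the sources used here.

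**Figure D2:**
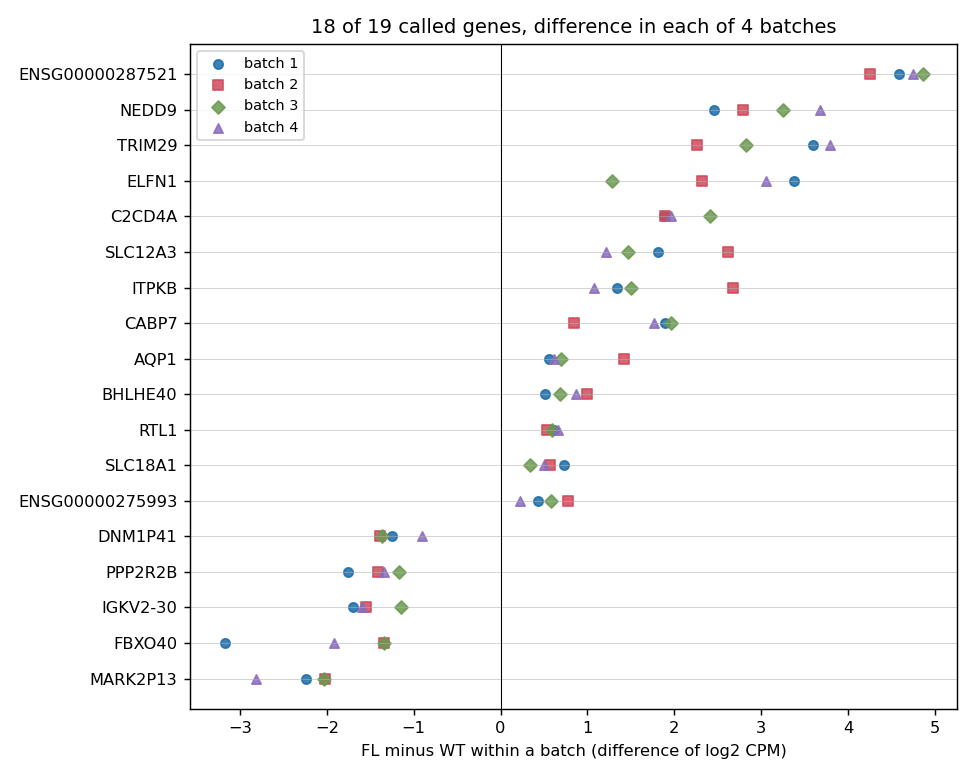
Difference in log2 CPM between the FL and the WT library of a batch (horizontal axis) for 18 of the 19 called genes (vertical axis). The 4 symbols are the 4 batches, and all 4 lie on the same side of 0 for every gene drawn. CABP7 has its smallest step in batch 2, AQP1 and ITPKB their largest.

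A pair of genes without a symbol in the tables also rose. ENSG00000275993.4 is SIK1B in GENCODE 29, a near-identical copy of the salt-inducible kinase gene SIK1, so its reads may be shared with SIK1 and the assignment is uncertain. It was at 12.3 to 15 CPM in WT and 16.6 to 22.6 CPM in FL, without overlap, and rose by 0.50 ± 0.08 (adjusted p 0.0328). ENSG00000287521.1 had 0 counts in all WT libraries and 40, 39, 55 and 55 counts in FL batches 1 to 4, at least 15.6-fold above the limit of 3 counts per library that a count of 0 allows. It passed the low-count filter only through the transfected groups, and its reads may belong to EPAS1, which could not be resolved here. It was the only gene still called without the batch in the model (adjusted p 0.00229).

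Of the genes that fell, PPP2R2B (ENSG00000156475.19, chr5:146580742-147081520) had the highest level per length, at a mean of 37.0 TPM in WT. It encodes a B-type regulatory subunit that directs protein phosphatase 2A to its substrates in neurons. Its level was 205, 215, 291 and 354 CPM in WT and 61.0, 80.8, 130 and 140 CPM in FL, so that every FL library lay below every WT library. PPP2R2B fell 2.66-fold (log2 fold change −1.41 ± 0.14, adjusted p 0.000308). Of the 14 phosphatase 2A subunits tested, no other was called and the median log2 fold change was 0.00. The scaffold subunit PPP2R1A had a log2 fold change of 0.16 (unadjusted p 0.0254), and PPP2R2C, the closest in kind to PPP2R2B among the named subunits, one of 0.21 (unadjusted p 0.0869).

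FBXO40 (ENSG00000163833.8), a muscle-enriched F-box protein of a ubiquitin ligase, was at 3.40, 3.24, 2.94 and 4.70 CPM in WT and 0.340, 1.25, 1.14 and 1.21 CPM in FL, and fell 3.88-fold (adjusted p 0.0117). Another 3 falls were of features whose reads can be shared with close copies and are uncertain for that reason. IGKV2-30, an immunoglobulin kappa variable segment, went from 3.63 to 5.07 CPM in WT to 1.09 to 1.78 CPM in FL (log2 fold change −1.54 ± 0.24, adjusted p 0.0216). The pseudogene DNM1P41 went from 2.65 to 3.93 CPM to 1.09 to 1.97 CPM (log2 fold change −1.24 ± 0.21, adjusted p 0.0334). The pseudogene MARK2P13 went from 20 to 41 counts in WT libraries to 3 to 8 counts in FL libraries (log2 fold change −2.68 ± 0.47, adjusted p 0.0444), and no FL library reached the level of the low-count filter. None of the 6 genes that fell overlapped between the groups, beside 0.358% of tested genes that were lower without overlap. Their selection by the test, and for MARK2P13 the filter itself, made this likely. The WT level was highest in batch 4 for 5 of these 6, whereas it was highest in batch 2 for 10 of the 13 genes that rose.

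Not all of these calls rested on all libraries alike. In all, 7 genes stayed called when any single WT or FL library was left out, among them BHLHE40, PPP2R2B, SLC12A3, TRIM29 and C2CD4A. These 5 all lost their call without the batch in the model (adjusted p 0.757 for SLC12A3 and 1 for the others). In a fit of only the 8 FL and WT libraries with the batch, BHLHE40 and SLC12A3 lost it (0.0979 and 0.103) at log2 fold changes of 0.76 and 1.82. ENSG00000287521 is also among the 7. It had 0 counts in every WT library and passed the filter only through the groups where it is high, so this is no support. When a whole batch was left out, SLC12A3 was lost without batch 1 (adjusted p 0.0744), TRIM29 without batch 1, 3 or 4 (0.0744, 0.107 and 0.0638) and C2CD4A without batch 1, 3 or 4 (0.114, 0.0565 and 0.0638). FBXO40 was lost without FL replicate 3 or 4 (highest adjusted p 0.0597), ITPKB without WT replicate 2 or 3 or FL replicate 2 (0.0700), and SLC18A1 and ELFN1 each without WT replicate 1 or 4 or FL replicate 2 (0.0865 and 0.107). NEDD9 was lost without WT replicate 1 or 3 or FL replicate 2 or 3 (0.141). IGKV2-30 stayed called only without WT replicate 3 or FL replicate 2 (0.145), CABP7 and RTL1 only without WT replicate 2 (0.145 and 0.196), ENSG00000275993 only without WT replicate 4 (0.166), and AQP1 only without FL replicate 1 (0.277). DNM1P41 and MARK2P13 lost their call without any 1 library (0.164 and 0.224). No gene changed direction in these fits.

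Among 40 genes that hypoxia induces through either HIF, 12 had an unadjusted p under 0.05 and were higher, none was lower at that level, and 31 had a positive log2 fold change. The 12 are 30% of the list against 3.49% of all tested genes, and the 31 stand beside 10460 of 19529 tested genes with a positive value. The list's median log2 fold change was 0.09 beside 0.01 over all tested genes, and 0.01 beside −0.01 when batch 2 was left out. In 4 of 4 batches FL was higher for 13 of the 40, beside 5.32% of all tested genes. Apart from BHLHE40 none passed the adjusted threshold. Without the batch in the model 3 of the 40 were higher at an unadjusted p under 0.05, beside 139 of all tested genes (0.712%).

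NDRG1, a hypoxia- and stress-induced gene, had the widest difference in this list. It was at 4.24, 109, 4.80 and 4.15 CPM in WT and at 17.4, 210, 19.2 and 20.3 CPM in FL. In batches 1, 3 and 4 the steps from WT to FL were 2.02, 1.99 and 2.28 on the log2 scale, while in batch 2 the WT level was already 109 CPM and the step was 0.95. Over all batches the log2 fold change was 1.56 ± 0.33 (adjusted p 0.121). NDRG1 was called when batch 2 was left out, with a log2 fold change of 2.09 ± 0.14 (adjusted p 7.91e-05).

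ADM, which encodes the vasodilator peptide adrenomedullin, was at 0.960, 1.51, 1.47 and 1.3 CPM in WT and 2.52, 4.82, 1.89 and 1.51 CPM in FL (log2 fold change 0.94 ± 0.22, adjusted p 0.223). CXCR4, a chemokine receptor, was at 1.98, 0.894, 1.54 and 0.966 CPM in WT and 3.16, 8.13, 2.34 and 2.27 CPM in FL (log2 fold change 1.46 ± 0.32, adjusted p 0.167). Neither gene overlapped between the groups, ADM by a margin that is lost in rounding, beside 0.451% of tested genes that were higher without overlap. Both differences were widest in batch 2. VEGFA, the main growth factor of blood vessels, was at 93.1, 312, 109 and 104 CPM in WT and 138, 479, 157 and 113 CPM in FL (log2 fold change 0.47 ± 0.11, adjusted p 0.266). With DESeq2 in place of edgeR, NDRG1, CXCR4, ADM and VEGFA were all called, at adjusted p-values of 0.0066, 0.00208, 0.0181 and 0.0134. Of 14 tested genes associated with HIF-2, which include these last 3, 4 were higher (28.6%) and none lower at an unadjusted p under 0.05, beside 3.49% and 1.61% of all tested genes, and 8 of the 22 listed did not pass the low-count filter. CXCR4, ADM and VEGFA were also the 3 with an unadjusted p under 0.05 among 18 tested genes of secreted angiogenic factors and their receptors, which is 16.7% of the list, and none of the 18 was lower at that level. Without the batch in the model 2 genes of each of these lists were higher at an unadjusted p under 0.05.

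All 24 glycolysis genes had a positive log2 fold change, from 0.02 to 0.50 with a median of 0.11, beside 10460 of 19529 tested genes with a positive value, and none was called. The 5 with an unadjusted p under 0.05 (20.8%, beside 3.49% of all tested genes) included HK2, the hexokinase that commits glucose to the cell, at 0.30 ± 0.08 (adjusted p 0.476) and SLC2A1, the glucose transporter GLUT1, at 0.46 ± 0.13 (adjusted p 0.495). PFKFB4, which sets the level of an activator of glycolysis, had a log2 fold change of 0.32 ± 0.07 (adjusted p 0.158). Of 12 genes associated with HIF-1, many of them glycolytic, 4 were higher (33.3%) and none lower (beside 1.61% of all tested genes) at an unadjusted p under 0.05, with a median of 0.11. All 4 of the HIF-1 list are also among the 5 glycolysis genes counted above. Without the batch in the model the count was 0 of 12 for the HIF-1 list and 1 of 24 for glycolysis. The median of the glycolysis list was 0.20, 0.10, −0.03 and 0.21 in batches 1 to 4. The 28 ribosomal protein genes, of which none was called and 1 (3.57%) had an unadjusted p under 0.05, had batch medians of 0.30, −0.01, −0.02 and 0.15, and all 28 log2 fold changes were positive, from 0.06 to 0.14. The nuclear genes of oxidative phosphorylation had batch medians of 0.22, −0.03, −0.05 and 0.19. Over all tested genes the medians in batches 1 to 4 were 0.05, 0.0005, −0.02 and 0.05. The medians of the 3 lists were likewise above 0 in batches 1 and 4 and below 0 in batch 3. In batch 2 only that of the glycolysis list, among the 3, was above 0. Whether these levels bear on the glycolysis values was not tested.

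**Figure D3:**
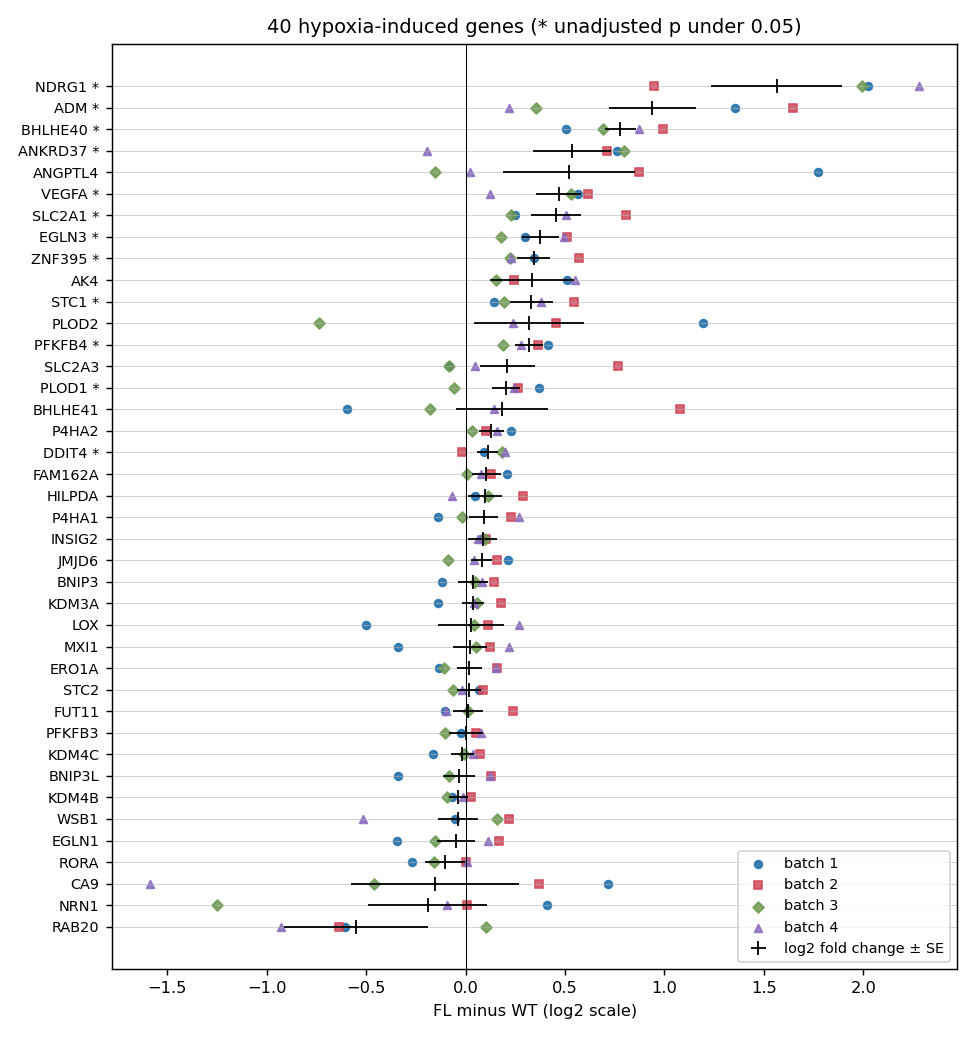
FL minus WT on the log2 scale (horizontal axis) for the 40 hypoxia-induced genes (vertical axis), with 4 symbols for the batches and black bars for the log2 fold change ± SE of the model. NDRG1 is at the top at 1.56, with its batch 2 value at 0.95, and 31 of the 40 lie above 0.

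The parts of the oxygen-sensing pathway themselves were not called. EGLN3, a prolyl hydroxylase that is itself induced by hypoxia, was at 28.2, 51.8, 34.9 and 30.9 CPM in WT and 34.7, 73.7, 39.5 and 43.5 CPM in FL (log2 fold change 0.38 ± 0.09, adjusted p 0.296). HIF1A was at 385, 409, 398 and 361 CPM in WT and 239, 383, 370 and 406 CPM in FL (log2 fold change −0.16 ± 0.11). Its differences within batches 1 to 4 were −0.69, −0.09, −0.11 and 0.17. The log2 fold changes were −0.08 ± 0.06 for ARNT, −0.07 ± 0.07 for VHL and −0.05 ± 0.10 for EGLN1. MYCN, the amplified oncogene of this line, was at 2594 to 3307 CPM in WT and 2661 to 3173 CPM in FL. Its log2 fold change was −0.02 ± 0.05. None of 12 tested genes of the MYC network reached an unadjusted p under 0.05, beside 3.49% higher and 1.61% lower of all tested genes.

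Of 4 catecholamine genes read here, SLC18A1 was called and DBH, TH and DDC were not. SLC18A1 (ENSG00000036565.15), the vesicular monoamine transporter VMAT1 of chromaffin cells, was at 59.3, 109, 72.6 and 69.3 CPM in WT and 98.2, 161, 91.5 and 97.9 CPM in FL. It rose 1.44-fold (log2 fold change 0.53 ± 0.08, adjusted p 0.0117). DBH, which turns dopamine into noradrenaline, was at 311, 495, 327 and 293 CPM in WT and 404, 701, 360 and 390 CPM in FL, just outside the threshold (log2 fold change 0.36 ± 0.07, adjusted p 0.0681). TH, the rate-limiting enzyme of the pathway, was at 0.960, 5.68, 1.35 and 0.856 CPM in WT and 1.92, 9.36, 2.21 and 1.71 CPM in FL (log2 fold change 0.83 ± 0.17, adjusted p 0.121). DDC, which makes dopamine, showed 0.19 ± 0.05 (adjusted p 0.296). With DESeq2 in place of edgeR, DBH, TH and DDC were called, at adjusted p-values of 0.000297, 0.00918 and 0.0165. The 4 genes were put together after their values were seen and are no fixed list: SLC18A1 is in none of the gene lists, and DBH, TH and DDC are the 3 adrenergic markers with the smallest p. These 4 genes were higher in FL in 4 of 4 batches, as were 4 of the 25 adrenergic markers (DBH, TH and DDC among them) and 5.32% of all tested genes, and for each of the 4 the groups overlapped only through the WT library of batch 2. The storage-granule proteins CHGA and CHGB had log2 fold changes of 0.20 ± 0.07 and 0.10 ± 0.05, with values just below 0 in batch 3 for CHGA (−0.02) and in batch 4 for CHGB (−0.01).

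Lists of cell state were read in the same way, beside 3.49% higher and 1.61% lower over all tested genes. Of 25 adrenergic markers, which include DBH, TH and DDC, 6 were higher (24%) and 1 lower (4%) at an unadjusted p under 0.05, with a median log2 fold change of 0.03. Without the batch in the model 1 of the 25 was higher at that level. Of 16 mesenchymal markers 1 was higher and none lower at that level, and the median was −0.06. That gene was MAFF, a small basic leucine zipper factor, at 0.61 ± 0.15 (adjusted p 0.289). None of 18 genes of neuronal differentiation had an unadjusted p under 0.05. Of 10 collagen-modifying enzymes all had a positive log2 fold change with a median of 0.16, and 3 had an unadjusted p under 0.05 (30%), namely LOXL3 at 0.31, PLOD1 at 0.20 and P4HB at 0.11, but 0 without the batch in the model.

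**Figure D4:**
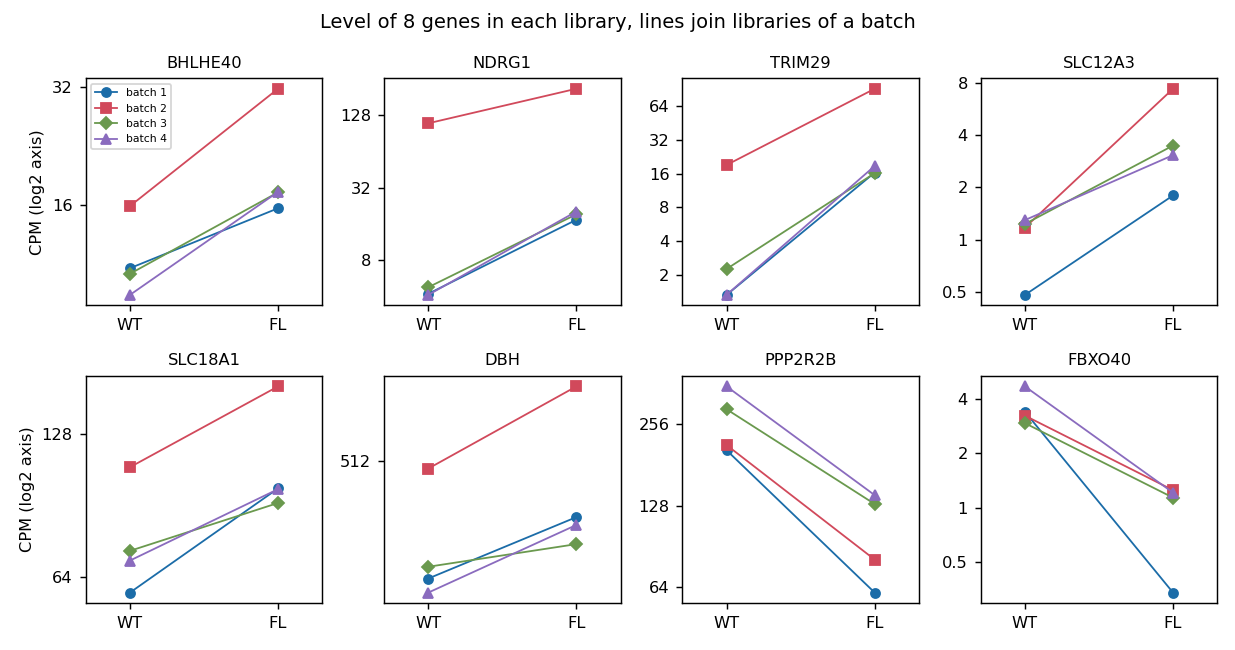
Level in CPM (vertical axis, log2 scale, a range of its own in each panel) of 8 genes in the WT and FL libraries, with a line for each batch. Every line rises for BHLHE40, NDRG1, TRIM29, SLC12A3, SLC18A1 and DBH and falls for PPP2R2B and FBXO40. Batch 2 lies above the others in 5 of the 8 panels at both ends of its line.

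A further 12 genes had an adjusted p from 0.0607 to 0.0940, and all 12 were higher, with log2 fold changes of 0.32 to 3.06. They were RGS8 and RGS4, which shorten G-protein signals, the amino acid transporter SLC6A19, the transcription factor SOX7, DBH, SNAPC1, PRICKLE2, OLFML2A, RCN3, FGD5, IGF2-AS and GALNT18. RGS4 was at 305, 585, 268 and 261 CPM in WT and 378, 885, 393 and 426 CPM in FL (log2 fold change 0.55 ± 0.10, adjusted p 0.0665). SOX7 and SLC6A19 were the only ones of the 12 without overlap, beside 0.451% of tested genes that were higher without overlap. SOX7 was at 37.2 to 39.2 CPM in WT and 44.7 to 65.5 in FL. SLC6A19 was at 0.193 to 0.307 CPM in WT, around the level of the low-count filter of 0.212 CPM, and 0.631 to 2.17 in FL. IGF2-AS lies antisense to IGF2, and its reads may not be its own.

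Programmes that transfection or stress could touch held no called gene, and their counts at an unadjusted p under 0.05 stand beside 3.49% higher and 1.61% lower over all tested genes. None of 14 tested interferon-response genes had an unadjusted p under 0.05 (median log2 fold change 0.04). Of 18 immediate early genes 1 was lower (ATF3, −0.18 ± 0.08) and of 15 p53 targets 1 was higher (TNFRSF10B, 0.47 ± 0.12, adjusted p 0.296). Of 20 genes of the endoplasmic reticulum and amino acid stress responses 3 were higher (15%; 0 without the batch in the model) and 1 lower (5%), the lower being ATF3 again and the higher including the chaperone HSPA5 at 0.18 ± 0.05 (adjusted p 0.435). Of 30 proliferation genes 2 were higher, CCNE1 at 0.21 and AURKB at 0.17, and none was lower. No gene of iron handling (11), lipid and sterol synthesis (20) or histone demethylation (17) reached that level. Of 26 nuclear genes of oxidative phosphorylation 1 did, COX4I2, the hypoxia-induced form of a cytochrome oxidase subunit, at 0.121 to 3.05 CPM in WT and 0.358 to 5.27 CPM in FL (log2 fold change 1.24 ± 0.37, adjusted p 0.619).

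The 19 called genes were also read in the cells with the NCTAD and the cIDR form. Against the same WT libraries 16 of the 19 were called in the same direction in NCTAD, where 88 genes were called in all (0.451%), and 15 in cIDR, where 94 were (0.481%). These counts share their WT libraries with the FL comparison. BHLHE40 was higher than WT by 0.93 in NCTAD and 1.11 in cIDR, and PPP2R2B was lower, at −1.12 and −1.17. Set directly against FL, none of the 19 was called in NCTAD, where 0 genes were called at all (0%; 721 at an unadjusted p under 0.05), or in cIDR, where 6 were (0.0307%; 717 at an unadjusted p under 0.05). The smallest adjusted p among the 19 was 0.996 for NCTAD and 0.182 for cIDR. The latter was ITPKB, with a log2 difference of −1.24 between cIDR and FL, and it was not called in cIDR against WT. Some estimates lay 3 or more SE from 0 without a call, among them NCTAD minus FL for RTL1 (0.39 ± 0.10), FBXO40 (0.89 ± 0.28) and C2CD4A (0.71 ± 0.23), and cIDR minus FL for BHLHE40 (0.33 ± 0.08), so that a missing call does not show equal levels.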

How the data were processed

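RNA-seq was done on poly(A)-selected, stranded libraries made, per the labels' protocols, from 250 ng of total RNA and amplified over 13 cycles. The submitters' processing notes list fastp, STAR, Salmon, featureCounts and GRCh38, without versions or roles; the annotation release is not given in the sources used here. The authors deposited estimated counts per gene (unscaled, per the file headers) and TPM values for 63187 genes. Here, estimated counts (15.5% not whole) were rounded. Genes were filtered with filterByExpr by group (19530 left) and tested with edgeR 4.0.16 (R 4.3.3) by its quasi-likelihood test. TMM normalization was used, with group and batch as terms over all 16 libraries and 9 residual degrees of freedom. The threshold for a call was 0.05 on p-values adjusted by Benjamini-Hochberg over all tested genes. An SE is the log2 fold change over the square root of F. CPM use TMM-scaled sizes, and log2 CPM a prior count of 2. TPM were used for markers and, with limma 3.58.1 on log2(TPM + 1) and log2(TPM + 0.1), as alternatives. Other alternatives are in the closing section, with DESeq2 1.42.0. The replicate number marks a batch in the labels: deviations from group means correlated at 0.290 on average within a batch (0.0674 to 0.645) and −0.0904 between batches. The value between batches follows from centring on the group means and is no separate evidence of the pairing. No libraries were copies (chi-square per degree of freedom at least 11.3). On simulated counts for 19530 genes in this comparison, 68 of 100 genes changed 1.5-fold and 89 of 100 changed 2-fold were recovered, with 13 false calls. The changed genes were drawn from those with a mean above 1 CPM, and the counts used the spread of the model with the batch. These rates do not cover genes at lower levels or fits without the batch. Named genes were all called genes, those with adjusted p of 0.05 to 0.10, up to 3 members with the smallest p per list (mean log2 CPM of at least 0), and 6 pathway genes; CHGA, CHGB, EGFL7, VWF, CDH5, ZNF395, STC1, RAB20 and CA9 were picked after their values were seen. A called gene and some list members are not reported here. The genes, lists and tests were chosen with earlier results of these data known. Promoter windows and locations are from RefSeq, GRCh38.p14. Counting intervals and limits cover counting error only.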

Additional observations from a re-analysis of the deposited data

Results flagged for a closer look

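In 28 of 194 groups of 4 libraries, over the genes named above, the highest or lowest log2 CPM was farther from the other 3 than Dixon's test at the 0.05 level allows; chance flags about 1 in 20 groups. Of the 28 values 23 are in batch 2, 8 in WT and 15 in FL, so that genes share these libraries and the flags are not independent.

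Both groups were high in batch 2 for CABP7 (23.0 CPM in WT, 41.5 in FL, against 0.772 to 0.988 and 2.99 to 3.70 in the other batches), NDRG1 (109 and 210 CPM), SESN2, a stress-induced sensor (91.0 and 86.1 CPM), and ATF3, a stress-induced transcription factor (33.0 and 32.7 CPM). SESN2 and ATF3 were high there in both groups without being higher in FL.

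Only the FL group passed this limit, with its batch 2 library as the highest, for BHLHE40 (31.7 CPM), TRIM29 (92.1), SLC18A1 (161), ELFN1 (11.7), AQP1 (37.8), TH (9.36), PLOD1 (136), RGS4 (885), OLFML2A (14.2, against 0.408 to 0.558 in the other batches) and FGD5 (3.68). HSPA5, a chaperone of the endoplasmic reticulum, was low there, at 492 CPM. Only the WT group passed it, again through batch 2, for PFKFB4 (27.7 CPM), VEGFA (312), PPP2R2C (3.82) and SHMT2 (403). For each of these genes the batch 2 library of the other group was also the highest of its 4, or the lowest for HSPA5, without passing the limit. TRIM29, for example, was at 19.1 CPM in WT batch 2 against 1.32 to 2.24 CPM in the other WT libraries, and VEGFA at 479 CPM in FL batch 2 against 113 to 157 CPM.

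Outside batch 2, SLC12A3 was low in WT batch 1 (0.480 CPM), HMOX1 in WT batch 1 (2.80 CPM), FBXO40 in FL batch 1 (0.340 CPM) and JMJD1C in FL batch 1 (37.0 CPM), and IRF9 was high in WT batch 4 (3.40 CPM).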

How the results depend on the processing

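Without the replicate block the calls fell from 19 to 1, with 1 higher, 0 lower and 221 genes at an unadjusted p under 0.05 in place of 997, and cIDR against FL went from 6 calls to 0. With no low-count filter 67 genes were called (54 higher, 13 lower), with DESeq2 57 (49 higher, 8 lower), and with only the 8 FL and WT libraries 7 (4 higher, 3 lower; 447 at an unadjusted p under 0.05). Requiring 10 counts in every library left 8 higher, and log2(TPM + 1) 7. Leaving out batch 1, 3 or 4 whole left 4, 6 and 6 calls (2, 4 and 4 higher, 2 lower each), and without batch 2 there were 16, of which 13 were among the 19. Leaving out 1 library gave 9 (WT replicate 1) to 22 calls (FL replicate 1), 5 to 19 higher, 2 to 5 lower, and 576 to 1802 genes at an unadjusted p under 0.05. The cause of these changes was not tested, beyond the fewer libraries in each such fit.

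Of the 19 genes, 7 remained called in all 8 fits without 1 library and 4 in all 4 fits without a batch, but 0 in all the other alternatives. With only the 8 FL and WT libraries 6 of the 19 remained; BHLHE40 (adjusted p 0.0979, log2 fold change 0.76 in place of 0.78), ENSG00000287521 (0.0880), SLC12A3 (0.103) and SLC18A1 (0.103) were among those lost, while PPP2R2B, TRIM29 and C2CD4A remained. The fits without batch 1, 3 or 4 lost TRIM29 and C2CD4A, and that without batch 1 lost SLC12A3. None of the 19 changed sign in any alternative. Among named genes that were not called, the sign turned for EGLN2 (−0.0058), MXD3 (−0.037), KDM7A (0.011) and EGLN1 (0.031) without batch 1, for VHL without batch 4 (0.013), and for JMJD1C with log2(TPM + 1) (0.13) and log2(TPM + 0.1) (0.14). Leaving out 1 library gave −0.12 to 0.051 for EGLN1, −0.025 to 0.26 for MXD3 and −0.035 to 0.0029 for MYCN. Low counts limit ENSG00000287521, NEDD9 and MARK2P13.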

Other observations

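EGFL7, a secreted protein known from endothelium, was at 2.91, 19.8, 2.46 and 2.28 TPM in WT batches 1 to 4 and 8.67, 41.1, 2.66 and 4.69 TPM in FL and, with a log2 fold change of 1.13 ± 0.24, was not called (adjusted p 0.121). The other endothelial markers that passed the low-count filter were also higher in FL in 4 of 4 batches, VWF with a log2 fold change of 1.26 ± 0.33 (unadjusted p 0.00197) and CDH5 with 0.90 ± 0.53 (unadjusted p 0.108), at 0.0156 to 0.246 TPM and 0.00753 to 0.199 TPM over the 8 libraries. TIE1 was at 0, and 7 of the 8 markers were under 1 TPM in every library. ZNF395 and STC1, both induced by hypoxia, had log2 fold changes of 0.34 ± 0.08 and 0.33 ± 0.11 and were higher in 4 of 4 batches without being called (adjusted p 0.296 and 0.76). RAB20 and CA9 of the same list had log2 fold changes of −0.55 ± 0.36 and −0.15 ± 0.42, with unadjusted p-values of 0.149 and 0.719. CA9 was higher in FL in batches 1 and 2 (0.72 and 0.37) and lower in batches 3 and 4 (−0.46 and −1.58).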
